A study of Mus musculus with 4 samples.

Results

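At 977 places in the mouse genome, a peak of histone H3 trimethylated on lysine 4 (H3K4me3) was called in macrophages with 1 functional copy of Wbp7 after lipopolysaccharide (LPS), and in none of the other 3 libraries of the study. They were found by joining the peaks of all 4 deposited lists wherever they overlapped by 1 bp or more and keeping the regions that only the list of LPS-treated Wbp7+/- cells contributed to. The 977 made up 5.20% of the 18786 joined regions, and 5.94% of the 16438 with a peak in that list. They are called the members below. They were chosen by the presence of a peak in that list and its absence from the other lists, so that pattern is not a result, and their scores and widths are given as a description.

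The cells were primary bone marrow-derived macrophages at day 7 of differentiation, from mice of a mixed background, 6% of it 129/Ola and 94% C57BL/6. The groups were LPS-treated Wbp7-/-, untreated Wbp7-/-, LPS-treated Wbp7+/- and untreated Wbp7+/- cells, with 1 library each. Every group carried at least 1 inactive Wbp7 allele, and no wild-type library was analysed here. LPS was given at 10 ug/ml for 4 h per the labels, but the first line of the LPS-treated Wbp7+/- file names 24 h. All members come from that file, so the LPS time behind them is uncertain. The sources used here do not give how the allele was inactivated, the age of the mice or the number pooled per library.

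H3K4me3 marks the promoters of active genes, where it is laid down by methyltransferases of the SET1 and MLL families. Wbp7, also called Kmt2b, is one of the MLL enzymes. LPS, a component of the outer membrane of Gram-negative bacteria, is sensed through Tlr4 and switches on inflammatory genes, and the mark can appear or spread at such genes as they are transcribed. Where the mark spreads beyond a promoter, a peak caller may return the stretch as 1 wide peak or as several pieces. No mm9 annotation was used here, so positions carry no gene names, and the macrophage label was not checked against marker genes.

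The lists held 15086 peaks in LPS-treated Wbp7-/-, 14599 in untreated Wbp7-/-, 17313 in LPS-treated Wbp7+/- and 17316 in untreated Wbp7+/- cells. Each peak has the peak caller's score, which starts near 50, piles up at 3100 and reaches 3233.06. It grows with sequencing depth, and read numbers are unknown, so a region without a peak in a library can still carry the mark at a level the caller did not report. Each group is 1 library, so groups could not be tested against each other. Ranges in brackets after shares are 95% Wilson intervals, which take in the counting error over regions and nothing of the variation between cultures. They also count each region as separate, though many lie close to each other. What sets the LPS-treated Wbp7+/- library apart as a library cannot be told apart from what LPS did in Wbp7+/- cells.

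Most members were weak. A score under 100 was held by 688 of the 977, with a median of 63.8, and a score of 100 or above by 289, with a median of 143. Of the stronger 289, 274 scored from 100 to under 500, 14 from 500 to under 3100, and 1 stood at 3100. Among regions with an LPS-treated Wbp7+/- peak scoring under 100, 38.8% were members. That share was 1.97% at a score of 100 or above, and 1 of 9414 regions at 3100 or above. The peaks absent elsewhere were thus mainly those nearest to the caller's threshold.

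Exchanging the lists in the same rule gave 321 regions with a peak in LPS-treated Wbp7-/- cells alone, 470 for untreated Wbp7-/- and 630 for untreated Wbp7+/-. The members also held the most regions scoring 100 or above, 289 (29.6%, 26.8 to 32.5), against 73 (22.7%, 18.5 to 27.6) in LPS-treated Wbp7-/-, 116 (24.7%, 21.0 to 28.8) in untreated Wbp7-/- cells and 105 (16.7%, 14.0 to 19.8) in untreated Wbp7+/- ones. The order of the 4 counts changed once the lists were made equally long. With every list cut to the length of the shortest, 14599 peaks, by keeping the top scores, there were 414 members. The regions of 1 other list alone then numbered 414 in LPS-treated Wbp7-/-, 794 in untreated Wbp7-/- cells and 170 in untreated Wbp7+/- ones. Members no longer outnumbered the regions of LPS-treated Wbp7-/- cells alone. The untreated Wbp7-/- list was the shortest and lost no peak, while peaks cut from the other lists make new absences. The changed order is therefore partly set by the cut.

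**Figure D1:**
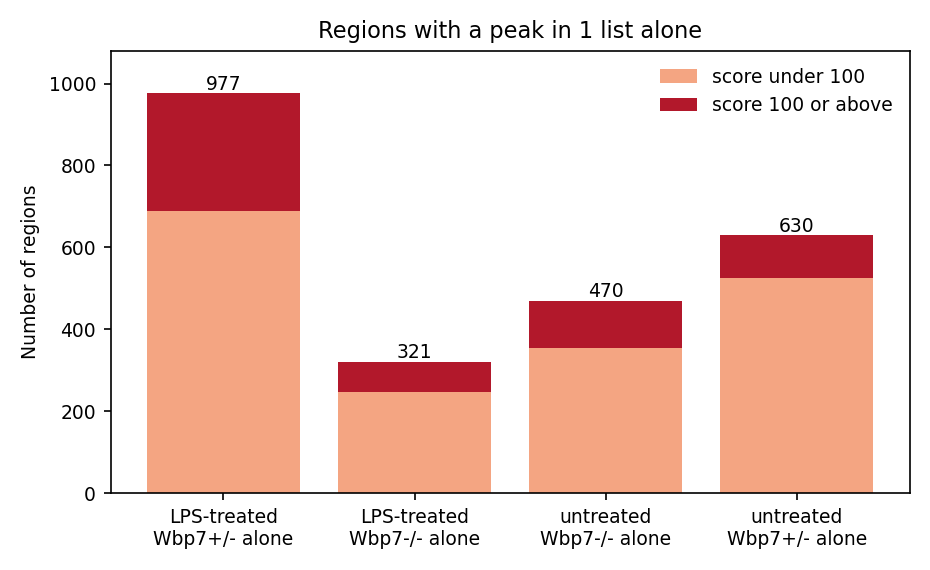
Number of regions with a peak in 1 list alone (vertical axis), for each of the 4 lists, split by the score of the peak. The LPS-treated Wbp7+/- bar, the members, is the tallest at 977, of which 289 score 100 or above, and the other bars stand at 321, 470 and 630.

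The member with the highest score, at chr1:173696956-173699585 (mm9, counted from 1), was 2630 bp wide and scored 3100. No peak of another list lay near it. The nearest was 69934 bp away in LPS-treated Wbp7-/-, 69753 bp in untreated Wbp7-/- cells and 69842 bp in untreated Wbp7+/- ones. A second member of 564 bp and a score of 92.14 began 9 bp after it ended, so that 1 stretch of mark counts as 2 members.

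Other strong members were also far from peaks of the other lists, by distances that varied. The member at chr15:6823187-6824703 scored 1599.94 and lay 162449 bp from the nearest LPS-treated Wbp7-/- peak and 163159 and 163116 bp from the untreated Wbp7-/- and Wbp7+/- ones. At chr9:7272251-7274623, a member of 2373 bp and a score of 1581.24 was followed by 2 weaker ones, of 630 and 432 bp, that ended at 7275767. Its nearest peak was 85369 bp away in LPS-treated Wbp7-/-, 86169 bp in untreated Wbp7-/- cells and 50817 bp in untreated Wbp7+/- ones. The pair at chr4:88165868-88167912 and chr4:88167985-88169343 scored 859.1 and 848.92 with 72 bp between them. The nearest peak to this pair was 28303 and 26872 bp away in LPS-treated Wbp7-/-, 15520 and 14089 bp in untreated Wbp7-/-, and 15393 and 13962 bp in untreated Wbp7+/- cells, closer than for the members before. In all, 201 of 977 members (20.6%, 18.2 to 23.2) had no peak of any other list within 50 kb.

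Other strong members lay beside peaks that all libraries had. On chromosome 3, members at 65336478 to 65337339 (score 743.86) and 65337407 to 65339791 (1465.09) followed a peak at 3100 in every list. That peak measured 4586 bp in LPS-treated Wbp7-/-, 3364 bp in untreated Wbp7-/-, 5261 bp in LPS-treated Wbp7+/- and 3456 bp in untreated Wbp7+/- cells. It was wider with LPS in both genotypes, and in LPS-treated Wbp7+/- cells the run of peaks continued into the members. The member at chr16:84709740-84710960 (score 417.48) began 58 bp beyond such a peak, which measured 7346 and 2846 bp in LPS-treated and untreated Wbp7-/- cells and 8224 and 2750 bp in LPS-treated and untreated Wbp7+/- cells. Here the Wbp7-/- peak also reached most of the way to the member, ending 258 bp short of it.

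On chromosome 5, the member at 92755634 to 92757344 scored 1160.11 and stood between 2 regions found in every list. One of these, from 92773046 in LPS-treated Wbp7-/- cells, measured 5038 bp with LPS and 1267 bp untreated in Wbp7-/- cells. Wbp7+/- cells had 5445 bp in 2 peaks with LPS and 2971 bp untreated. That neighbour was wider with LPS in both genotypes, while the member itself lay 15701 bp from the nearest LPS-treated Wbp7-/- peak, 16286 bp from an untreated Wbp7-/- peak and 3970 bp from an untreated Wbp7+/- peak of score 77.5. On chromosome 2, the member at 167640955 to 167642971 scored 1707.3. A region found in every list ended 9706 bp before it in LPS-treated Wbp7-/- cells. Its peak measured 1421 and 1134 bp in LPS-treated and untreated Wbp7-/- cells and 1656 and 1067 bp in LPS-treated and untreated Wbp7+/- cells, so it was wider with LPS in both genotypes.

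The 20 members with the highest scores ran from 395.25 to 3100 on 12 chromosomes, with widths of 862 to 2630 bp. Of these 20, 4 had an LPS-treated Wbp7-/- peak within 5 kb, 4 an untreated Wbp7-/- peak and 5 an untreated Wbp7+/- peak. A region of all 4 lists lay within 50 kb of 12 of the 20, and the nearest ones were 11 different regions. Of these 11, 6 were wider with LPS in both genotypes, 3 in Wbp7+/- cells but not in Wbp7-/- cells, and 2 in neither. The region 5289 bp from the member at chr19:5559721-5561202 was one of those 2, at 5503 and 7115 bp in LPS-treated and untreated Wbp7-/- cells and 5076 and 7021 bp in LPS-treated and untreated Wbp7+/- cells. Beside chr4:124414615-124416082, the region 2291 bp away measured 1533 and 1779 bp in LPS-treated and untreated Wbp7-/- cells and 1969 and 1750 bp in LPS-treated and untreated Wbp7+/- cells. The neighbours of the strongest members thus did not all go one way. The remaining strong members named by score were at chr2:70346508-70347999 (1545.88), chr4:124414615-124416082 (1283.06) and chr3:105707327-105709153 (828.4). Scores from 504.03 to 520.56 were found at chr9:21299390-21301295, chr7:38382585-38384530 and chr8:12949232-12950611. Those at chr19:5559721-5561202, chr19:11166613-11167680, chr2:91863307-91865031 and chr13:101321654-101323297 scored from 395.25 to 480.41.

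Members were narrow. Their median width was 616 bp, with quartiles at 452 and 829 bp, and was 797 bp at a score of 100 or above and 548.5 bp under 100. The regions of 1 other list alone had medians of 745 bp in LPS-treated Wbp7-/-, 792.5 bp in untreated Wbp7-/- cells and 612.5 bp in untreated Wbp7+/- ones. The 329 regions gained with LPS in both genotypes, found in the lists of both LPS-treated groups and absent from those of untreated cells, had a median of 981 bp in LPS-treated Wbp7+/- cells. The widest member, of 2726 bp, was at chr2:127099884-127102609 with a score of 315.71. Width and score did not go together throughout, since members of 2458 and 2374 bp, at chr7:132702435-132704892 and chr10:117266056-117268429, scored 107.79 and 67.12.

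The other wide members scored from 107.07 to 316.58 and lay at chr11:22742899-22745087, chr12:112674597-112676726, chr19:6291039-6293144 and chr18:65210476-65212562. The first of these was 56 bp from a region gained with LPS in both genotypes. Around the threshold of 100, the members just above scored 100.15 to 100.57 and those just under 99.11 to 99.92. Those just above lay at chr11:82823728-82824327, chr6:52210488-52211055, chr14:31429457-31430857, chr5:46316972-46317750 and chr7:91027092-91027943. Those just under lay at chr13:105837120-105837915, chr9:85215457-85216293, chr10:79566349-79567369, chr11:48711039-48711961 and chr18:38387983-38388549. Widths were 568 to 1401 bp above and 567 to 1021 bp under the threshold, so the 2 sides overlapped.

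**Figure D2:**
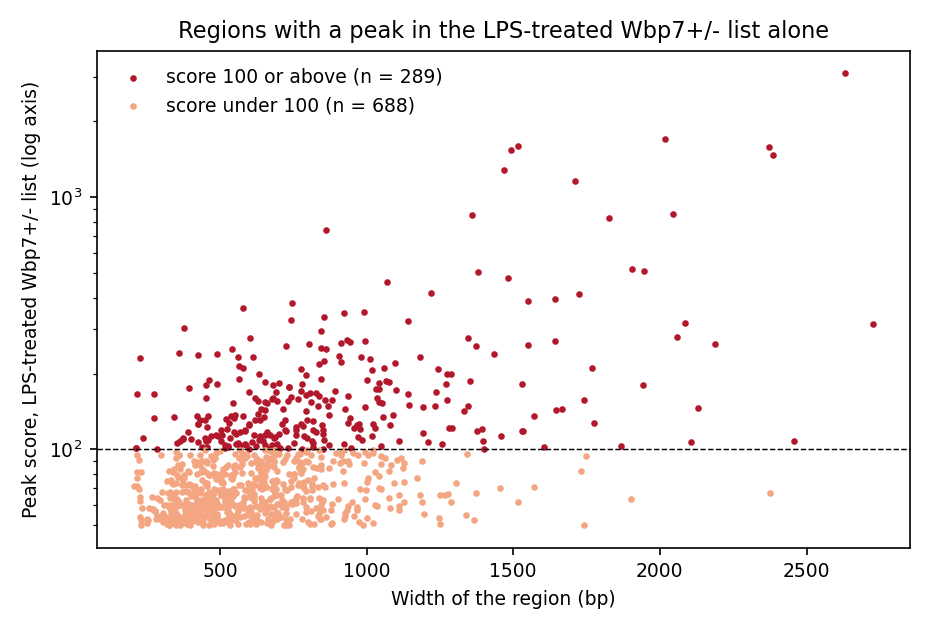
Width (horizontal axis, bp) and peak score in LPS-treated Wbp7+/- cells (vertical axis, log scale) of the 977 members, 1 point each, with the score of 100 as a dashed line. Most points lie between 50 and 200 in score, the median width is 616 bp, and the single point at 3100 is the member on chromosome 1.

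Within 1 kb, members had a peak of LPS-treated Wbp7-/- cells more often than a peak of untreated cells. Such a peak was within 1 kb of 224 members (22.9%, 20.4 to 25.7), against 108 (11.1%, 9.24 to 13.2) for an untreated Wbp7-/- peak and 172 (17.6%, 15.3 to 20.1) for an untreated Wbp7+/- peak. The regions of LPS-treated Wbp7-/- cells alone had an LPS-treated Wbp7+/- peak within 1 kb at 62 of 321 (19.3%, 15.4 to 24.0). That interval overlapped the one of 20.4 to 25.7 for members. The counts that follow were made for members only, so no share for the other classes stands beside them. At 81 members an LPS-treated Wbp7-/- peak, and no untreated peak, lay within 1 kb. Within 5 kb, 89 members had an LPS-treated but no untreated Wbp7-/- peak, and 8 had an untreated but no LPS-treated one. Among members scoring 100 or above these numbers were 33 and 0 of 289. With untreated peaks of either genotype barred, as in the count of 81, there were 48 of 977 within 5 kb, 15 of them scoring 100 or above. At these 48 members LPS-treated Wbp7-/- cells had a peak beside the member, where untreated cells of either genotype had none within the same distance. That Wbp7-/- cells had no call in the member itself is set by the rule.

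The coverage of the 5 kb on each side of the members went the same way. It was greater in LPS-treated than untreated Wbp7-/- cells at 330 members and smaller at 79, with no Wbp7-/- peak in the flanks of 567. On average 1109 bp of the flanks were covered in LPS-treated and 712.8 bp in untreated Wbp7-/- cells, and 1512 bp in LPS-treated and 925 bp in untreated Wbp7+/- cells. The LPS-treated Wbp7+/- value counts other members in the flanks, which have no untreated peak by the rule. Another member lay within 5 kb of 181 of the 977, so the Wbp7+/- difference is partly set by the rule. The flanks of the regions found in untreated Wbp7+/- cells alone ran the other way, with more coverage in LPS-treated than untreated Wbp7-/- cells at 66 and less at 117. Around regions of LPS-treated Wbp7-/- cells alone it was more at 91 and less at 40, where the LPS list of the same cells had chosen the regions.

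Many members came in groups. Another member lay within 1 kb of 129 members (13.2%, 11.2 to 15.5) and within 50 kb of 284 (29.1%, 26.3 to 32.0). Within 50 kb of another region of their own class lay 11.5% (8.48 to 15.5) of the regions of LPS-treated Wbp7-/- cells alone, 13.8% (65 of 470) of those of untreated Wbp7-/- cells and 10.3% (8.18 to 12.9) of those of untreated Wbp7+/- cells alone. The members are the most numerous of these classes, and the part of their number in this was not tested. The 329 gains shared by both genotypes, a smaller set than the members, reached 31.9% (27.1 to 37.1).

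Groups of 3 or more members, each within 50 kb of the next, numbered 35 and held 136 members on 16 chromosomes. Their median span was 29.5 kb, and a span could exceed 50 kb. Within these spans Wbp7-/- cells had more bases under peaks with LPS than untreated in 24 groups, fewer in 0, and no peak in either list in 11. A region gained with LPS in both genotypes lay inside 11 of the 35, and a region found in all 4 lists inside 18. Such a gain adds bases to the LPS-treated lists alone, by definition. The LPS-treated Wbp7+/- totals of the groups below also include the members themselves, which the rule keeps out of the other lists.

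The group with the most members, 11, ran over 75.7 kb at chr11:82770868-82846573, with scores of 53.62 to 114.48. Peaks covered 13195 bp of this span in LPS-treated Wbp7-/-, 8182 bp in untreated Wbp7-/-, 21718 bp in LPS-treated Wbp7+/- and 11993 bp in untreated Wbp7+/- cells. The members supplied 5965 of the 21718 bp, and the rest, 15753 bp, was again more than in untreated cells. They stood around 5 regions that LPS-treated Wbp7-/- cells also had, 2 of them gained with LPS in both genotypes. One of the 5 held a single peak of 8417 bp in LPS-treated Wbp7+/- cells, and was made of 4 pieces in LPS-treated Wbp7-/- cells. How the caller cut the stretch thus differed between these lists.

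Groups of 6 members lay at chr6:3292426-3344958, chr7:113649689-113694530 and chr11:119262669-119268706. On chromosome 6, peaks covered 3710 and 2208 bp in LPS-treated and untreated Wbp7-/- cells and 8159 and 2589 bp in LPS-treated and untreated Wbp7+/- cells. The 6 members of the last of these filled 5372 of 6038 bp, a nearly unbroken stretch in which neither untreated list nor the LPS-treated Wbp7-/- list had a peak. Just before it stood a peak from 119259178, of 2306 bp in LPS-treated Wbp7-/- cells, 2479 bp in LPS-treated and 823 bp in untreated Wbp7+/- cells, and none in untreated Wbp7-/- cells.

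Groups of 5 lay at chr1:175806350-175892220, where peaks covered 7676 and 3328 bp in LPS-treated and untreated Wbp7-/- cells and 9204 and 6040 bp in LPS-treated and untreated Wbp7+/- cells, and at chr11:48790622-48805704. A group of 4 at chr18:60515379-60545156 stood among 4 regions gained with LPS in both genotypes. Its span had 5535 bp under peaks in LPS-treated Wbp7-/- and 0 in untreated Wbp7-/-, and 11319 bp in LPS-treated and 0 in untreated Wbp7+/- cells. A further group of 4 at chr19:34649916-34682200, also among 4 shared gains, had 5859 bp with LPS and 491 bp untreated in Wbp7-/- cells, and 8972 and 2786 bp in Wbp7+/- cells. In both groups, LPS-treated cells of either genotype had more bases under peaks than untreated ones. Members and shared gains have no untreated peak by definition. The span on chromosome 18 held regions of no other class, so its difference was fixed by the rules. The span on chromosome 19 also held 1 region of all 4 lists and 1 missing only in untreated Wbp7-/- cells. Members supplied 1838 of its 8972 bp, so its difference is partly set by the rules. The 4 members at chr2:127098115-127150277, which include the widest of all, were the only peaks of any list in their span, with 5095 bp in LPS-treated Wbp7+/- cells and 0 in each of the other 3. The group was not isolated, since a region found in all 4 lists lay just outside the span, 77 bp from its first member. The nearest Wbp7-/- peaks were 263 bp from that member with LPS and 184 bp untreated.

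**Figure D3:**
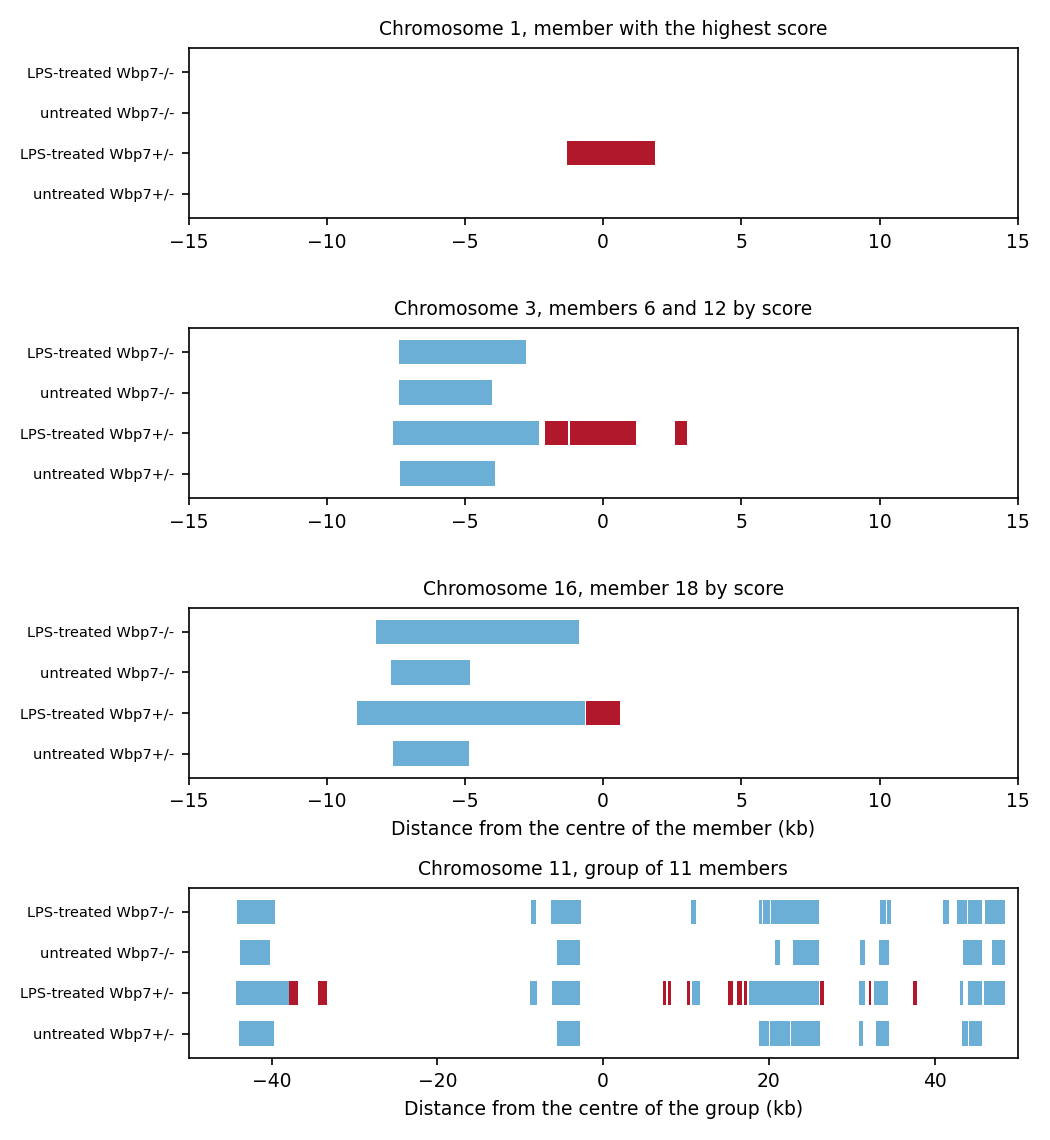
Peaks of the 4 lists (rows) by distance in kb from the centre of a member or group (horizontal axis), with members in red and all other peaks in blue. The member on chromosome 1 stands alone with its neighbour, those on chromosomes 3 and 16 lie next to a peak found in all 4 lists, and the 11 on chromosome 11 lie between and beside peaks of the other lists.

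The rule did not choose members by the width of regions found in all 4 lists, and that width was read beside them. It does limit where the edges of such regions can lie, since a peak of another list that reaches a member removes it. Of the members, 326 (33.4%, 30.5 to 36.4) lay within 5 kb of such a region. That share was 28.0% (23.4 to 33.2), 27.9% (24.0 to 32.1) and 26.2% (22.9 to 29.8) for the regions of LPS-treated Wbp7-/-, untreated Wbp7-/- and untreated Wbp7+/- cells alone. The median distance from a member to a region of all 4 lists was 15700 bp. Both values depended on how peaks were joined. With peaks joined also when up to 1 kb apart, the median distance was 29864 bp and 14.7% of the 620 members were within 5 kb. The other classes then had 37 of 235 regions (15.7%) in LPS-treated Wbp7-/-, 73 of 385 (19.0%) in untreated Wbp7-/- and 70 of 502 (13.9%) in untreated Wbp7+/- cells alone, so members no longer had the highest share. At 5 kb or less there were 274 such neighbouring regions, with median covered lengths of 3391 and 2671.5 bp in LPS-treated and untreated Wbp7-/- cells and 3626.5 and 2798.5 bp in LPS-treated and untreated Wbp7+/- cells.

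Most of these neighbours were wider with LPS in both genotypes. In Wbp7-/- cells 203 of 274 (74.1%, 68.6 to 78.9) were wider in LPS-treated than untreated cells, while 40.5% of all 12294 regions of the 4 lists were. In Wbp7+/- cells 232 of 274 (84.7%, 79.9 to 88.5) were, against 40.0% of all. The median difference, LPS-treated minus untreated, beside members came to 315 bp for Wbp7-/- and 344.5 bp for Wbp7+/-, and to -49 and -53 bp over all regions. The rule bars any Wbp7-/- peak, LPS-treated or untreated, and any untreated Wbp7+/- peak, that reaches into a member. The rule also took members from the LPS-treated Wbp7+/- list, so the Wbp7+/- widths are less independent of it.

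Beside members scoring 100 or above, 79 of 92 neighbours (85.9%, 77.3 to 91.6) were wider with LPS in Wbp7-/- cells. Beside weaker members it was 137 of 196 (69.9%, 63.1 to 75.9). The median difference in Wbp7-/- cells, LPS-treated minus untreated, was 749.5 bp over all 92 and 273.5 bp over all 196. The corresponding shares in Wbp7-/- cells were 62.4% (51.7 to 71.9) beside regions of LPS-treated Wbp7-/- cells alone, 23.0% (16.5 to 31.1) beside those of untreated Wbp7-/- and 34.6% (27.6 to 42.3) beside those of untreated Wbp7+/- cells alone. Only the interval of the LPS-treated Wbp7-/- class overlapped that of the members.

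The LPS-treated Wbp7+/- list held the widest call at 172 of the 274 neighbours (62.8%, 56.9 to 68.3), a pattern seen at 19.3% of all regions of the 4 lists. LPS-treated Wbp7-/- cells had the widest at 47, untreated Wbp7-/- cells at 30 and untreated Wbp7+/- cells at 25. The members are peaks of the LPS-treated Wbp7+/- list, and the rule bars peaks of the other lists from reaching into them. This share is therefore not independent of the rule, and is given as a description.

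**Figure D4:**
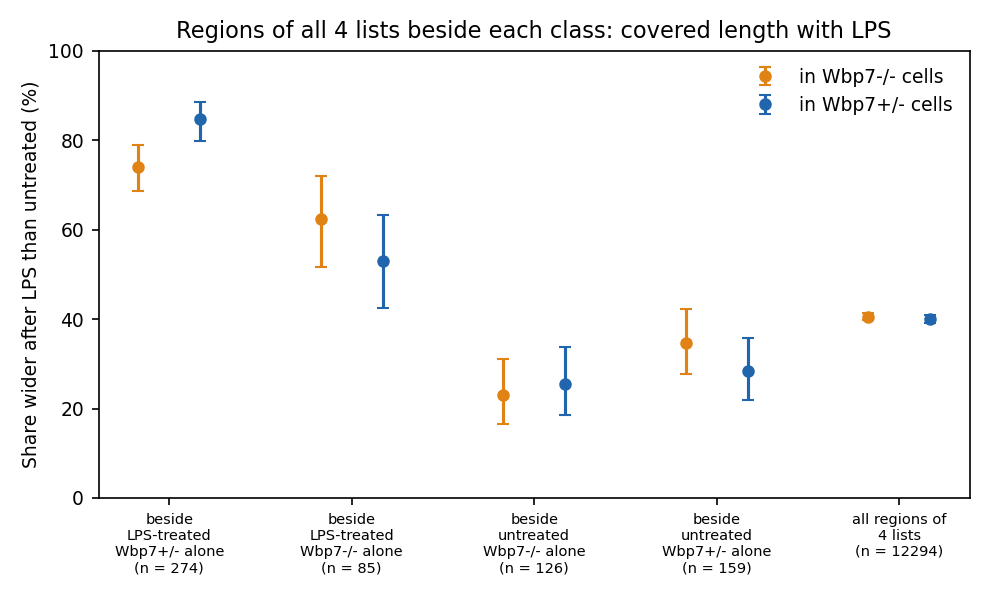
Share of regions found in all 4 lists whose covered length was greater with LPS than untreated (vertical axis, %), in Wbp7-/- and in Wbp7+/- cells, with 95% Wilson intervals, for regions within 5 kb of each class and for all regions. The shares beside members stand at 74.1% and 84.7%, above the 40.5% and 40.0% over all regions.

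A minority of members also lay near the regions that both genotypes gained with LPS. Within 50 kb of such a region were 137 members (14.0%, 11.99 to 16.3), 29 regions (9.03%, 6.36 to 12.7) of LPS-treated Wbp7-/- cells alone, 11 (2.34%, 1.31 to 4.14) of untreated Wbp7-/- and 15 (2.38%, 1.45 to 3.89) of untreated Wbp7+/- cells alone. Within 1 kb there were 48 members (4.91%, 3.73 to 6.45) and 11 regions of LPS-treated Wbp7-/- cells alone (3.43%, 1.92 to 6.03). For untreated cells the numbers were 0 of 470 Wbp7-/- regions (0%, 0 to 0.811) and 0 of 630 Wbp7+/- regions (0%, 0 to 0.606). Shared gains are drawn from the same lists as these classes, with a peak in both LPS lists and an absence from the untreated ones. Pieces of 1 stretch called with LPS can therefore count as neighbours, and the higher shares of the LPS classes are not independent of the rule. The intervals of the LPS classes overlapped each other. Most members lay far from a shared gain, at a median distance of 1935001 bp. The median was 2845995 bp for regions of LPS-treated Wbp7-/- cells alone. It was 2132455 bp for those of untreated Wbp7-/- and 2757920.5 bp for those of untreated Wbp7+/- cells alone.

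Stronger members lay near a shared gain more often than weaker ones. Within 50 kb were 56 of the 289 scoring 100 or above (19.4%, 15.2 to 24.3) and 81 of the 688 under 100 (11.8%, 9.57 to 14.4). These intervals did not overlap, nor did those within 100 kb, while those within 1, 5 and 10 kb did. Within 10 kb the shares were 11.1% (7.95 to 15.2) and 7.56% (5.81 to 9.78). The intervals count members as separate, though several can be pieces of 1 stretch near the same shared gain, and whether the shares differ was not tested. Regions lost with LPS in both genotypes, which number 154, were within 50 kb of 9 members (0.921%, 0.485 to 1.74). That share was 3.12% (1.70 to 5.64) for regions of LPS-treated Wbp7-/- cells alone. It was 4.26% (2.77 to 6.48) for untreated Wbp7-/- and 1.90% (1.09 to 3.30) for untreated Wbp7+/- cells alone. Lost regions are drawn from the same lists, so these shares are not independent of the rule. The nearness to shared gains depended on how peaks were joined. With peaks joined also when up to 1 kb apart, a setting chosen after seeing the data, 25 of 620 members (4.03%) lay within 50 kb of a shared gain, against 5.53%, 2.08% and 1.79% of the regions of LPS-treated Wbp7-/-, untreated Wbp7-/- and untreated Wbp7+/- cells alone. Members then no longer stood above the LPS-treated Wbp7-/- class.

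**Figure D5:**
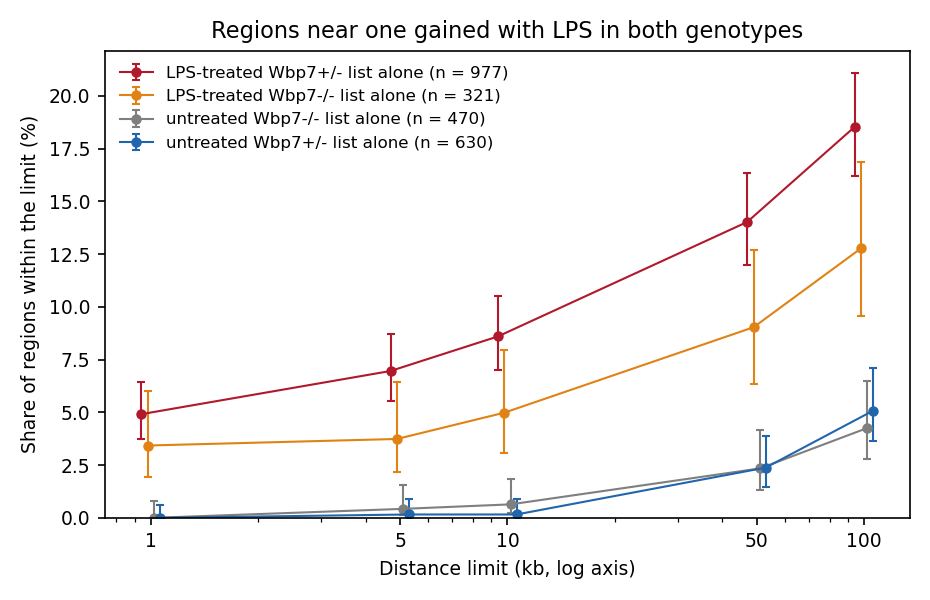
Share of regions (vertical axis, %) within 1, 5, 10, 50 and 100 kb (horizontal axis, log scale, points shifted slightly for legibility) of a region gained with LPS in both genotypes, for the regions of each list alone, with 95% Wilson intervals. The members reach 14.0% at 50 kb and 18.5% at 100 kb, and both untreated classes stay at 2.34% and 2.38% at 50 kb.

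Members were found on all 20 chromosomes represented, from 22 on chromosome 15 to 97 on chromosome 11. As a share of the regions with an LPS-treated Wbp7+/- peak they ran from 3.41% (2.37 to 4.88) on chromosome 8 to 8.26% (6.68 to 10.2) on chromosome 1. Chromosomes 14, 19 and 16 followed with 7.90%, 7.54% and 7.53%, and chromosome 15 had 3.43% (2.28 to 5.14). Chromosome 11 held the most shared gains, 35, and 6.98% (5.75 to 8.44) of its regions were members, an interval that includes the 5.94% of the whole list. On the X chromosome 25 of 485 regions (5.15%, 3.52 to 7.50) were members.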

How the data were processed

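Primary macrophages of 2 genotypes, each with and without LPS, were profiled with 1 library per group. Reads were aligned with Bowtie to mm9, per the submitters' processing notes. MACS was run on each library separately, and the word input points to an input control, per the file headers. The sources used here do not give versions, the p-value threshold or read numbers. The authors deposited a score per peak, by the convention of MACS a negative multiple of the log10 of its p-value, not scaled between libraries. It was used to describe and split peaks within a list.

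Peaks of the 4 lists were joined with bedtools 2.31.1 at 1 bp or more of overlap and classed by the lists with a peak. Distances run between region edges. The covered length is the sum of a list's peaks in a region. Intervals came from scipy 1.17.1, tables from Python 3.11.15 with pandas 2.3.3 and numpy 2.4.6, and plots from matplotlib 3.10.9. The joining and distances were tested on simulated data. Named were the 20 members with the highest score, the 5 on each side of 100 and the 10 widest. Also named were groups of 3 or more members, each within 50 kb of the next, of which the larger are given. The members, lists and rules were chosen with earlier results of these data known. Comparisons with annotated starts, gene lists and sequences need mm9, and the gene and promoter tables used here are of GRCm38, so they were not run and no sequence is printed.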

Additional observations from a re-analysis of the deposited data

How the results depend on the processing

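No paired analysis was possible because each group held 1 library and the labels carry no replicate numbers, and for the same reason no replicate could be left out. Of 51 alternative values, 21 stayed within 1.5 times a count or within the interval of a median or share, and 30 did not. With peaks joined also when up to 1 kb apart, members numbered 620, with 163 scoring 100 or above and 457 under 100. Their median distance to a region of all 4 lists was then 29864 bp, with 14.7% within 5 kb, and the share within 50 kb of a shared gain was 4.03%. The neighbours wider with LPS in Wbp7-/- cells made up 65.2% (58 of 89), against 40.6% of all. With peaks scoring under 100 dropped from every list, members numbered 630, all scoring 100 or above by construction, with a median distance of 21471 bp, 28.1% within 5 kb and a median width of 801.5 bp. Dropping peaks also makes new absences. The regions of 1 list alone then numbered 173 in LPS-treated Wbp7-/- and 312 in untreated Wbp7-/- cells.

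With lists of equal length members numbered 414, and the regions of untreated Wbp7-/- and untreated Wbp7+/- cells alone 794 and 170. Of the members, 0 scored under 100 by construction. The LPS-treated Wbp7+/- list held 15218 peaks at 100 or above and was cut to 14599. The untreated Wbp7-/- list, the shortest, lost no peak, so the cut made new absences in the other lists only. Without the untreated Wbp7+/- list members numbered 3093, with 1877 scoring 100 or above and 1216 under 100. Without the LPS-treated Wbp7-/- list 581 scored 100 or above. Leaving out the untreated Wbp7-/- list gave 1005 members, and asking for 50% of a peak to be covered gave 1103. For members scoring 100 or above, 37.4% were within 5 kb of a region of all 4 lists, the median width was 797 bp, 19.4% were within 50 kb of a shared gain, and 85.9% of neighbours were wider with LPS in Wbp7-/- cells. Under 100 the median width was 548.5 bp. Within 10 and 100 kb of a shared gain lay 8.60% and 18.5% of members. Neighbours wider by 10% or more made up 56.2%, against 17.2% of all. The 1 kb joining for shared gains, the alternatives for neighbours and those for the other classes were chosen after seeing the data. The number of members near annotated starts was not run. What depth lies behind an absent peak cannot be given without read numbers.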
